A study of Mus with 12 samples.

Results

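Integrins and cadherins are the main receptors by which uterine cells hold to the extracellular matrix and to each other, and their genes were followed here through the uterus of pregnant mice. A row of the deposited gene tables was taken as a member if it carried an Ensembl transcript and the name of an integrin α subunit, an integrin β subunit or a numbered cadherin. This gave 49 rows of 87235 in the table of the implantation stage (26 integrins and 23 cadherins) and 48 rows of 40787 in the table of the labor stage (26 and 22, without Cdh22). RNA-seq had been run on whole uteri of 12 pregnant ICR mice of 8 weeks, an outbred strain, with 1 library per mouse and 3 mice in each of 4 groups. The labels name no genotype or treatment, and the day of pregnancy is the only difference between the groups that they give. Mice at E0.5 and E4.5 made up the implantation stage, and mice at E15.5 and E18.5 that of labor. The comparisons were E0.5 against E4.5 and E18.5 against E15.5. The paper chose the days by progesterone levels, but no level measured in these mice is given.

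Each integrin is a pair of an α and a β subunit. The α subunit largely sets the ligand, such as collagen, laminin or proteins with an Arg-Gly-Asp (RGD) motif, and the β subunit links the receptor through talin and kindlin to the actin skeleton. Classical cadherins bind the same cadherin on the neighbouring cell and are coupled to actin by catenins. In the uterus, E-cadherin (Cdh1) joins epithelial cells, VE-cadherin (Cdh5) joins endothelial cells, and cadherin-11 (Cdh11) is a cadherin of mesenchymal cells. The αvβ3 integrin (Itgav with Itgb3) and its ligand osteopontin (Spp1) are known from the surface epithelium at attachment of the embryo. The α5β1 integrin (Itga5 with Itgb1) is the main fibronectin receptor.

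The implantation libraries held 58020989 to 70906881 counts, and the depth of the labor libraries, which were given as FPKM only, is unknown. Among the tested members of the implantation stage, 34 of 37 had at least 100 counts in every library, and the lowest count was 9, for Cdh19. One library of each stage stood apart. The library of E4.5 replicate 3 had a Spearman correlation of 0.711 to 0.725 with the others of its group, which correlated at 0.91. Its 12 genes of ovarian and adrenal steroid-making cells summed to 1393 FPKM against 7.70 to 10.6 in the other implantation libraries, its oviduct markers to 124 FPKM against 5.09 to 34.8, and its smooth muscle markers to 212 FPKM against 830 to 1260. It was the lowest of the 6 libraries for 20 of the 37 tested members. The library of E15.5 replicate 1 (0.872 and 0.902 with its group) was the lowest for 16 of 37, its epithelial markers summed to 210 FPKM against 330 to 1000 in the other labor libraries, and its neutrophil markers to 28.3 FPKM against 2.83 to 7.0. The labor libraries also held yolk sac markers at 2.96 to 803 FPKM. The part of these differences in the results was not tested, and members are given without these libraries wherever that changed a call by fold change and p or by adjusted p. In bulk tissue, fewer cells of a type and less RNA per cell cannot be told apart.

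All 49 rows of the implantation table overlapped the RefSeq gene of the same name in the mouse build GRCm38. Of 23 cadherins, 8 lay on chromosome 8 and 5 on chromosome 15, and of 26 integrins 5 lay on chromosome 2, 5 on chromosome 11 and 4 on chromosome 7. Cdh3 (chromosome 8, 106510891 to 106557297, plus strand) ended 46.1 kb before Cdh1 (106603351 to 106670246, plus strand). Cdh11 (102632095 to 102785642, minus strand) and Cdh5 (104101625 to 104144511, plus strand) lay on the same chromosome. The row of Itgam (chromosome 7, 128062640 to 128127216, plus strand) ended 2.33 kb before that of Itgax. Some rows of this stage merged several genes, so that their reads cannot be told apart. Among them were Itgam with Gm49368 and Gm45700, Itga1 with Gm49395 and Pelo, Itga5 with Mir6963, and Cdh11 with Gm45257 and Gm45258. At the labor stage the row of Itgam merged Gm45700 only, and those of Itga5 and Cdh11 merged no other gene.

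Between E0.5 and E4.5, the leukocyte subunit Itgam and the epithelial subunit Itgb6 had the largest log2 fold changes among tested members, both higher at E0.5. Of 12 tested cadherins, 6 met the criterion given next. Cdh1 was 2.23-fold higher at E0.5, while Cdh5 was 2.76-fold and Cdh11 2.98-fold lower. By the criterion of the study, a log2 fold change of 1 or more in either direction and an unadjusted p below 0.05, 11 of 37 tested members differed (29.7%), against 12.1% of all tested rows did. Of these, 9 were higher at E0.5 (6.13% of all rows) and 2 were lower (5.98%). The higher ones were Itgam, Itgb6, Itga11, Itga2, Itgae, Cdh19, Cdh23, Cdh24 and Cdh1. With an adjusted p below 0.05 in edgeR, 2 of 37 differed, Itgam and Itgb6, against 1.37% of all rows. By DESeq2 8 did (8.16% of all rows), and in edgeR without E0.5 replicate 2, without E0.5 replicate 3 or without E4.5 replicate 1 the count was 0. By the unadjusted p, 6 met the criterion without E0.5 replicate 1 (10.2% of all rows) and 7 without E0.5 replicate 3 (10.4%). The median log2 fold change was 0.21 over the members and -0.03 over all rows. Without E4.5 replicate 3, 12 members met the criterion (14.2% of all rows) and 10 met it with the adjusted p (5.82% of all rows).

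Between E18.5 and E15.5, the epithelial genes Cdh1, Cdh16, Itgb4 and Itgb6 were higher, and the endothelial Cdh5 and the lymphocyte genes Itgal and Itgb7 were lower, at E18.5. Cdh24 and Itga11 were higher too, and Cdh17 and Cdh23 lower. Trophoblast and placenta markers summed to 59.1, 6.99 and 4.82 FPKM at E15.5 and to 56.8 to 88.6 FPKM at E18.5, with 4 of 9 tested higher and 0 lower at E18.5 (6 higher without E15.5 replicate 1), and their part in these differences was not tested. These are 11 of 37 tested members (29.7%) by the same criterion, against 5.6% of all tested rows, with 6 higher (2.89% of all rows) and 5 lower (2.71%). No member had an adjusted p below 0.05 in limma (13 of 29597 rows, 0.0439%, did with the fold change), while 17 of 37 had an unadjusted p below 0.05, against 12% of all rows. The groups did not overlap for 18 of 37 members (48.6%), against 19.7% of all rows, and for 12 of 37 (32.4%) at the implantation stage, against 25.8%. The median log2 fold change was -0.06 over the members and 0.02 over all rows. Without E15.5 replicate 1, 6 members met the criterion, the same 5 lower ones and Cdh16, against 4.68% of all rows. Without E18.5 replicate 1 the count was 5 (4.64% of all rows), and without E18.5 replicate 2 it was 7 (5.84%). Adding 1 FPKM in place of 0.1 FPKM before the logarithm left 3 (1.49% of all rows).

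**Figure D1:**
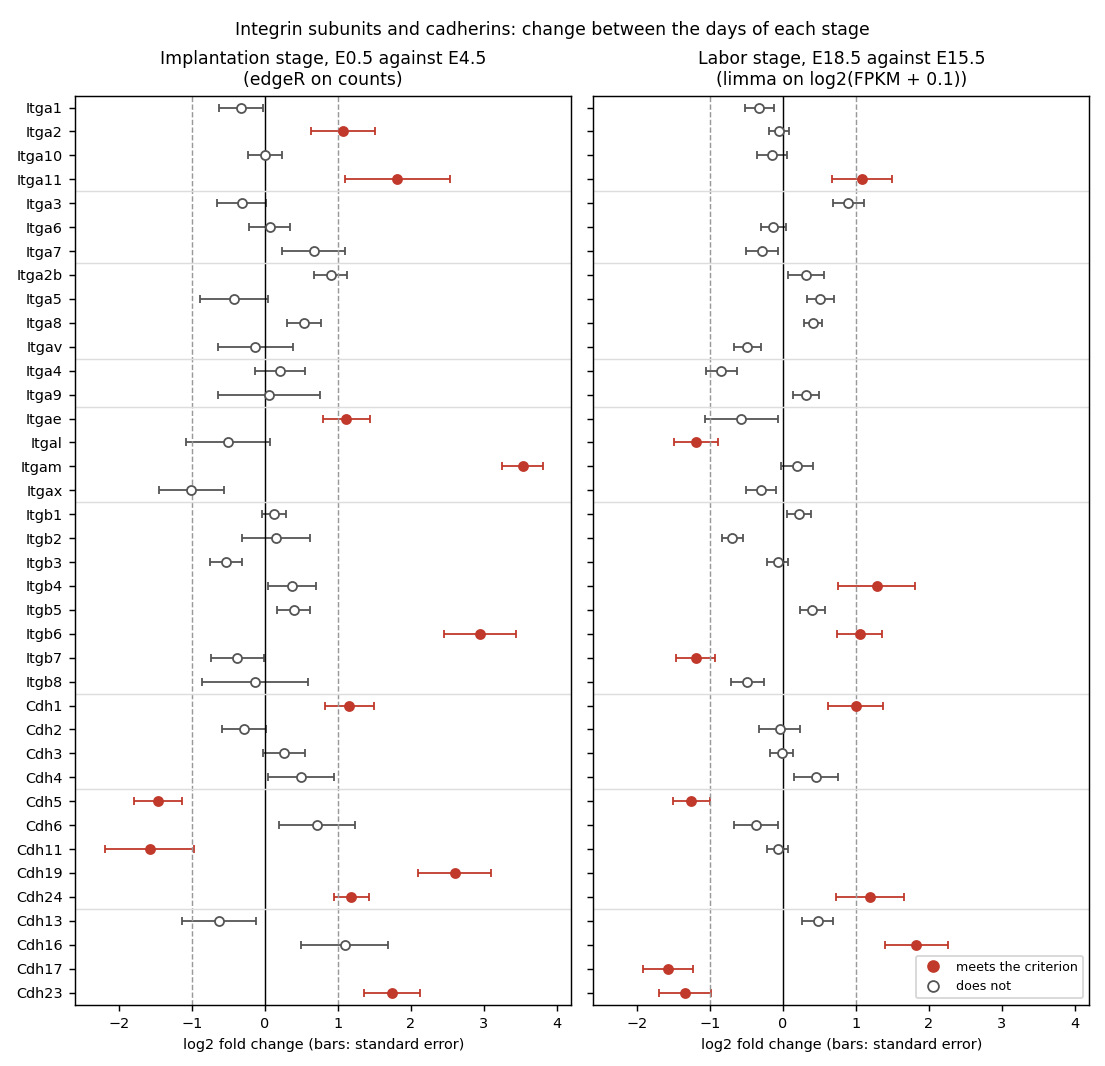
Log2 fold change (x axis) of each integrin subunit and cadherin tested, for E0.5 against E4.5 (left) and E18.5 against E15.5 (right). Points are fitted values, bars are standard errors, filled points meet the criterion of the study and dashed lines mark a log2 fold change of 1 in either direction. Itgam and Itgb6 lie farthest to the right at the implantation stage, and Cdh5 lies to the left in both stages.

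Among the subunits of RGD-binding integrins, none of Itgav, Itga5, Itga8 and Itga2b met the criterion in either stage. Itgav was at 12.9, 5.87 and 13.7 FPKM in the E0.5 libraries and at 6.96, 7.50 and 21.9 FPKM in the E4.5 libraries. E4.5 replicate 3 was the highest of the 6 libraries and the groups overlapped (log2 fold change -0.13, SE 0.52, adjusted p = 0.922). Without that library the sign turned (0.58, adjusted p = 0.381). At the labor stage Itgav was at 13.0, 18.45 and 19.98 FPKM at E15.5 and at 11.1, 12.3 and 12.7 FPKM at E18.5. All E18.5 libraries lay below all E15.5 libraries, with a small difference (log2 fold change -0.49, SE 0.18, adjusted p = 0.362).

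Itgb3, the β subunit that pairs with Itgav in the attachment receptor, was at 5.29, 8.11 and 6.35 FPKM at E0.5 and at 8.71, 8.99 and 11.4 FPKM at E4.5. The groups did not overlap, but the difference was under the fold change of the criterion (log2 fold change -0.53, SE 0.21, adjusted p = 0.266). At the labor stage its libraries overlapped, at 24.4, 32.8 and 25.8 FPKM at E15.5 and 27.0, 24.5 and 26.7 FPKM at E18.5 (-0.07, SE 0.15). Itgb6, an epithelial partner of Itgav that binds latent TGF-β, behaved otherwise. It was at 1.55, 2.59 and 4.03 FPKM at E0.5 and at 0.179, 0.470 and 0.434 FPKM at E4.5. Every E0.5 library was above every E4.5 library, 7.71-fold in the edgeR fit (log2 fold change 2.95, SE 0.49, adjusted p = 0.0474). The criterion was met with each library left out. With the adjusted p it was met in 1 of these 6 fits, where that p ran from 0.0247 to 0.178. The epithelial markers described with Cdh1 below were higher at E0.5 too. Itgb6 equalled 0.374% to 0.996% of their sum at E0.5 and 0.0972%, 0.187% and 0.419% at E4.5. Only E4.5 replicate 3, the highest of these, overlapped the E0.5 range. The part of epithelial content was not tested. At the labor stage Itgb6 was at 0.391, 0.729 and 0.903 FPKM at E15.5 and at 1.64, 1.28 and 1.41 FPKM at E18.5. The groups again did not overlap (1.05, SE 0.30, adjusted p = 0.254). Without E15.5 replicate 1 the log2 fold change was 0.75.

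The remaining αv partners, Itgb5 and Itgb8, did not meet the criterion. Itgb5 ranked second among β subunits by FPKM. It held 20.7% to 24.7% of the summed FPKM of β subunits at E0.5 and 14.3% to 22.6% at E4.5. Counts and FPKM imply a length of 35.5 kb for the Itgb8 row and 7.19 kb for Itgb5, so rank and shares rest on row length. By counts Itgb8 was above Itgb5 in each implantation library (8538 and 7965 in E0.5 replicate 1) except E4.5 replicate 3 (2243 and 7608). Itgb8 ranged from 3.47 to 6.13 FPKM at E0.5 and from 0.958 to 9.90 FPKM at E4.5, where E4.5 replicate 3 was the lowest.

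The fibronectin receptor subunit Itga5 was at 17.5, 13.5 and 13.9 FPKM at E0.5 and at 26.5, 26.6 and 7.45 FPKM at E4.5. E4.5 replicate 3 was the lowest of the 6 libraries and the other E4.5 libraries were the highest. With all libraries the log2 fold change was -0.42 (SE 0.47, adjusted p = 0.687), and without E4.5 replicate 3 it was -0.82 (adjusted p = 0.0290). At the labor stage Itga5 was at 9.53, 15.6 and 13.1 FPKM at E15.5 and at 18.2, 16.9 and 18.46 FPKM at E18.5. The E18.5 libraries lay above all E15.5 libraries (0.51, SE 0.19, adjusted p = 0.356). Its partner Itgb1, which joins at least the collagen, laminin and fibronectin α subunits, was the most abundant β subunit in each of the 12 libraries. It held 47.2% to 55.6% of the summed FPKM of β subunits at the implantation stage and 65.4% to 69.4% at the labor stage. The implantation libraries overlapped, at 42.9, 45.2 and 46.0 FPKM at E0.5 and at 45.1, 41.6 and 38.1 FPKM at E4.5 (log2 fold change 0.13, SE 0.16). The labor libraries lay at 161, 179 and 188.6 FPKM at E15.5 and at 188.9, 227 and 201 FPKM at E18.5, just without overlap (0.22, SE 0.17, adjusted p = 0.635). The tables were normalized separately, so levels of the stages were not compared.

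**Figure D2:**
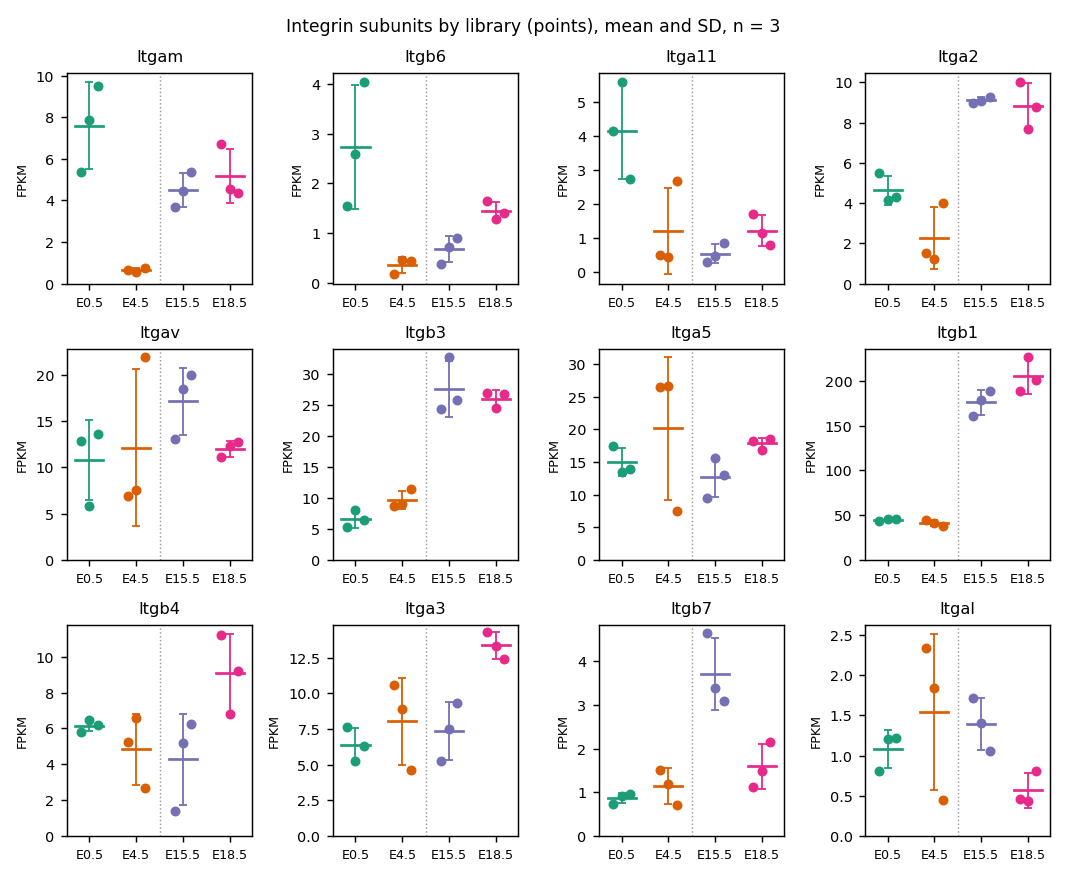
FPKM (y axis) of 12 integrin subunits in each library (points) by day of pregnancy (x axis), with the group mean (line) and SD (bars, n = 3). The dotted line parts the tables, which were normalized separately. Itgam and Itgb6 separate E0.5 from E4.5 in all libraries, while for Itgav, Itga5, Itga2 and Itga11 one E4.5 library lies apart from the other two.

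The collagen-binding subunits Itga2 and Itga11 met the criterion at the implantation stage, and Itga1 and Itga10 did not. Itga11, a collagen receptor of fibroblasts, was at 4.16, 5.59 and 2.74 FPKM at E0.5 and at 0.513, 0.452 and 2.69 FPKM at E4.5. Itga2 was at 5.48, 4.15 and 4.30 FPKM at E0.5 and at 1.52, 1.23 and 4.02 FPKM at E4.5. For both, E4.5 replicate 3 lay just under the E0.5 libraries and far above the other E4.5 libraries. The log2 fold change was 1.81 for Itga11 (SE 0.72, adjusted p = 0.262) and 1.07 for Itga2 (SE 0.44, adjusted p = 0.277). Without that library the values were 3.11 (adjusted p = 0.00632) and 1.75 (adjusted p = 0.00750). Leaving out any other library ended both calls. On the labor days Itga11 was at 0.292, 0.483 and 0.853 FPKM at E15.5 and at 1.71, 1.16 and 0.803 FPKM at E18.5. The groups overlapped (1.08, SE 0.41, adjusted p = 0.365), and the value was 0.77 without E15.5 replicate 1. The groups of Itga2 overlapped there, at 8.98 to 9.29 FPKM at E15.5 and 7.66 to 10.0 FPKM at E18.5. Itga1 was the most abundant α subunit in all E15.5 libraries, at 26.9 to 32.7 FPKM at E15.5 and 17.2 to 26.9 FPKM at E18.5 (-0.32, SE 0.20).

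None of the laminin-binding subunits met the criterion in either stage. Itga3, which pairs with Itgb1 in epithelia, came closest at the labor stage. It ranged from 5.24 to 9.30 FPKM at E15.5 and from 12.5 to 14.3 FPKM at E18.5, without overlap (log2 fold change 0.89, SE 0.21, adjusted p = 0.191). Itga6 was at 13.2 to 14.5 FPKM at E18.5 and at 13.2 to 19.6 FPKM at E15.5 (-0.13, SE 0.17). Its partner in hemidesmosomes, the anchors of epithelia to the basement membrane, is Itgb4. Itgb4 was at 1.41, 5.19 and 6.26 FPKM at E15.5 and at 11.2, 6.84 and 9.22 FPKM at E18.5. The groups did not overlap (1.28, SE 0.53, adjusted p = 0.406), and the value was 0.64 without E15.5 replicate 1. Relative to the summed epithelial markers, which were higher at E18.5 too, Itgb4 was at 0.671% to 1.57% at E15.5 and 0.983% to 1.28% at E18.5. These ranges overlapped, and the part of epithelial content in Itgb4 was not tested. At the implantation stage Itgb4 ranged from 5.82 to 6.46 FPKM at E0.5 and from 2.66 to 6.59 FPKM at E4.5 (0.37, SE 0.33).

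Itga4 and Itga9 bind VCAM-1, fibronectin and osteopontin, Itga4 mainly on leukocytes. Itga9 was at 8.27 to 13.8 FPKM at E0.5 and at 4.83, 3.95 and 25.6 FPKM at E4.5. E4.5 replicate 3 was the highest of the 6, and the log2 fold change was 0.05 with it and 1.40 (adjusted p = 0.0275) without it. Itga4 was at 1.94 to 2.38 FPKM at E18.5 and at 3.11 to 5.14 FPKM at E15.5, without overlap but under the fold change of the criterion (-0.85, SE 0.21, adjusted p = 0.207).

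The leukocyte subunit Itgam gave the largest difference of all members. Itgam, the α subunit of complement receptor CR3 on macrophages and neutrophils, was at 5.37, 7.88 and 9.53 FPKM at E0.5 and at 0.666, 0.569 and 0.763 FPKM at E4.5. The lowest E0.5 library was far above the highest E4.5 library, and E4.5 replicate 3 lay with its group. The difference was 11.6-fold (log2 fold change 3.53, SE 0.28, adjusted p = 0.0105). It met the criterion with each library left out, and was 3.62 (adjusted p = 0.00250) without E4.5 replicate 3. Itgb2, its β partner, was at 1.42, 1.97 and 1.85 FPKM at E0.5 and at 2.67, 1.22 and 0.845 FPKM at E4.5 (0.15, SE 0.46, adjusted p = 0.898). Itgax, the neighbouring gene and an α subunit of dendritic cells, was at 0.388 to 0.490 FPKM at E0.5 and at 0.387 to 1.14 FPKM at E4.5, without meeting the criterion (-1.01, adjusted p = 0.302), and met it without E4.5 replicate 3 (-1.37, adjusted p = 0.0257). The 10 macrophage and dendritic cell markers summed to 50.1 to 69.8 FPKM at E0.5 and to 31.3 to 43.5 FPKM at E4.5. Itgam equalled 10.7% to 14.4% of that sum at E0.5 and 1.75% to 1.82% at E4.5. Of the 9 tested, 3 met the criterion as higher at E0.5, Csf1r (log2 fold change 1.88), Mrc1 (1.66) and Adgre1 (1.11), and 0 as lower, and without E4.5 replicate 3 the counts were 3 and 1. Of the 8 neutrophil markers 4 were tested, and Ly6g (3.05), Mmp9 (2.252) and Csf3r (1.89) met it (the count was 2 without E4.5 replicate 3), while S100a9, Retnlg and Stfa2l1 were at 0 in all implantation libraries, and the sum was 2.42 to 7.06 FPKM at E0.5 and 1.28 to 2.37 FPKM at E4.5. The part of either cell type in the level of Itgam was not tested.

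The labor libraries of Itgam overlapped, at 3.70, 4.45 and 5.37 FPKM at E15.5 and 6.69, 4.53 and 4.34 FPKM at E18.5 (0.19, SE 0.22). Of the subunits known from lymphocytes, Itgal and Itgb7 met the criterion there. Itgal, the α subunit of LFA-1, was at 1.72, 1.40 and 1.06 FPKM at E15.5 and at 0.457, 0.428 and 0.813 FPKM at E18.5. Itgb7, which pairs with Itga4 and Itgae on lymphocytes, was at 4.64, 3.39 and 3.10 FPKM at E15.5 and at 1.13, 1.49 and 2.16 FPKM at E18.5. Neither gene overlapped between the groups. The log2 fold change was -1.19 for Itgal (SE 0.30, adjusted p = 0.211) and -1.20 for Itgb7 (SE 0.27, adjusted p = 0.177). Without E15.5 replicate 1 both met the criterion, at -1.03. Itgb2, the partner of Itgal, was at 4.78 to 6.31 FPKM at E18.5 and at 8.51 to 9.89 FPKM at E15.5, a smaller difference than the criterion asks (-0.69, SE 0.15, adjusted p = 0.166). Markers of T and NK cells moved with these genes, summing to 135 to 383 FPKM at E15.5 and to 10.1 to 42.6 FPKM at E18.5, and 6 of the 7 tested met the criterion as lower at E18.5. Relative to that sum, Itgal was at 0.448% to 0.786% at E15.5 and 1.91% to 4.52% at E18.5, and Itgb7 at 1.21% to 2.3% and 5.08% to 11.1%, so both were higher shares at E18.5. General leukocyte markers summed to 114 to 233 FPKM and 68.5 to 89.5 FPKM, and macrophage and dendritic cell markers to 198 to 240 FPKM and 213 to 284 FPKM. Their part in the levels of Itgal and Itgb7 was not tested.

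Itgae, which marks lymphocytes held in epithelia through binding of E-cadherin, was at 3.31, 2.23 and 2.13 FPKM at E0.5 and at 1.45, 1.35 and 0.767 FPKM at E4.5. The groups did not overlap (1.12, SE 0.32, adjusted p = 0.146), and without E4.5 replicate 3 the value was 0.87. Markers of T and NK cells summed to 4.21 to 14.5 FPKM at E0.5 and to 62.8, 23.6 and 2.79 FPKM at E4.5. Of the 6 tested, 0 met the criterion, and 4 met it as lower at E0.5 without E4.5 replicate 3. The part of such cells in the level of Itgae was not tested. Between E15.5 and E18.5 its groups overlapped (-0.57, SE 0.50, adjusted p = 0.674).

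Cdh1, the cadherin of epithelia and the ligand of Itgae, was at 37.8, 37.6 and 51.6 FPKM at E0.5 and at 21.8, 25.0 and 10.9 FPKM at E4.5. Every E0.5 library was above every E4.5 library (log2 fold change 1.16, SE 0.34, adjusted p = 0.147). Without E4.5 replicate 3 the fold change was under the criterion, at 0.86, and the adjusted p was 0.0429. In the labor libraries Cdh1 was at 8.01, 19.5 and 21.9 FPKM at E15.5 and at 36.8, 29.4 and 25.6 FPKM at E18.5. The groups did not overlap (1.0, SE 0.38, adjusted p = 0.368), but the lowest value was that of E15.5 replicate 1, and without it the log2 fold change was 0.55 (adjusted p = 0.362). The epithelial markers, a list of 12 keratin, claudin and other genes, moved the same way. They summed to 364 to 415 FPKM at E0.5 and 104 to 251 FPKM at E4.5, and to 695 to 1000 FPKM at E18.5 and 210 to 480 FPKM at E15.5. Of the 12, 5 met the criterion as higher at E0.5 and 6 as higher at E18.5, and none as lower. Cdh1 equalled 9.12% to 12.8% of the sum at E0.5 and 9.94% to 11.8% at E4.5, so that these ranges overlapped. In late pregnancy it equalled 3.81% to 5.91% at E15.5 and 3.55% to 4.23% at E18.5.

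Cdh3, the placental cadherin that lies beside Cdh1, met the criterion in neither stage. It was at 2.15, 3.18 and 2.32 FPKM at E0.5 and at 2.77, 2.0 and 1.68 FPKM at E4.5 (0.26, SE 0.28, adjusted p = 0.684). On the labor days it was at 5.24, 4.66 and 3.93 FPKM at E15.5 and at 4.06, 4.795 and 4.72 FPKM at E18.5 (-0.02, SE 0.16, adjusted p = 0.971). The groups overlapped in both stages. The other classical cadherins of this type that were tested, Cdh2 and Cdh4, did not meet the criterion in either stage, and Cdh15 was too low to be tested.

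**Figure D3:**
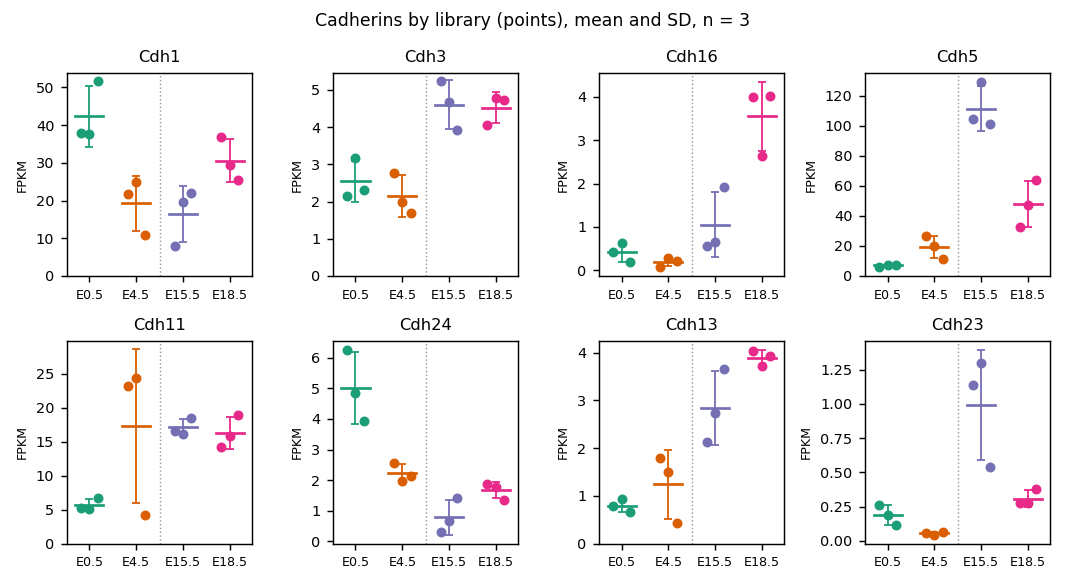
FPKM (y axis) of 8 cadherins in each library (points) by day of pregnancy (x axis), with the group mean (line) and SD (bars, n = 3). The dotted line parts the tables, which were normalized separately. Cdh1 is higher and Cdh5 lower at E0.5 and E18.5 than on the other day of the stage, and Cdh11 is high in only 2 of the E4.5 libraries.

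Cdh5 met the criterion in both stages, as lower at E0.5 and at E18.5. It was at 6.03, 7.46 and 7.26 FPKM at E0.5 and at 26.3, 20.01 and 11.5 FPKM at E4.5. All E0.5 libraries were below all E4.5 libraries (log2 fold change -1.47, SE 0.33, adjusted p = 0.0851), and without E4.5 replicate 3 the value was -1.74 (adjusted p = 0.00577). In all E15.5 libraries Cdh5 was the most abundant cadherin, at 104, 129 and 101 FPKM, and was at 32.8, 47.1 and 63.8 FPKM at E18.5. The groups again did not overlap (-1.26, SE 0.25, adjusted p = 0.156). Both calls stood with each library left out. The 10 endothelial markers without Cdh5 summed to 33.0 to 44.9 FPKM at E0.5 and 49.1 to 76.4 FPKM at E4.5, and 1 of them, Emcn, met the criterion (-1.10), or 4 without E4.5 replicate 3. The same markers summed to 70.4 to 72.4 FPKM at E15.5 and 65.7 to 73.0 FPKM at E18.5, and none met it. Cdh5 equalled 144% or more of that sum in each E15.5 library and 90.7% or less in each E18.5 library. At the implantation stage it equalled 13.4% to 22.0% at E0.5 and 22.3% to 40.7% at E4.5, the lowest in E4.5 replicate 3.

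Cdh11 was at 5.29, 5.18 and 6.76 FPKM at E0.5 and at 23.2, 24.3 and 4.21 FPKM at E4.5. In E4.5 the first libraries were the highest of the 6 and replicate 3 was the lowest. The log2 fold change was -1.58 (SE 0.61, adjusted p = 0.252) with all libraries and -2.04 (adjusted p = 0.00201) without E4.5 replicate 3, and leaving out any other library ended the call. The 9 markers of endometrial stroma summed to 192 to 314 FPKM at E0.5 and to 115 to 209 FPKM at E4.5, and 3 of them met the criterion as higher and 1 as lower at E0.5 (3 and 2 without E4.5 replicate 3). The median log2 fold change of the 9 was -0.13. The higher ones were the matrix genes Dcn (1.57), Lum (1.51) and Col6a4 (1.45). The lower one, the stromal transcription factor Hand2, was at 1.67 to 2.75 FPKM at E0.5 and at 22.0, 20.6 and 1.13 FPKM at E4.5 (-2.81, adjusted p = 0.204), so that E4.5 replicate 3 was again the lowest of the 6. The labor libraries of Cdh11 overlapped, at 16.6, 16.2 and 18.51 FPKM at E15.5 and 14.3, 15.9 and 18.9 FPKM at E18.5 (-0.07, SE 0.14).

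Cdh24, a further member of the type II group with Cdh5 and Cdh11, was at 6.25, 4.85 and 3.93 FPKM at E0.5 and at 2.57, 1.99 and 2.12 FPKM at E4.5, without overlap (1.18, SE 0.24, adjusted p = 0.0692). It met the criterion with each library left out. In late pregnancy it was at 0.301, 0.659 and 1.42 FPKM at E15.5 and at 1.88, 1.78 and 1.37 FPKM at E18.5, with overlap (1.19, SE 0.47, adjusted p = 0.384), and the value was 0.71 without E15.5 replicate 1. Cdh19, a cadherin of glial cells of nerves, was low at 0.274 to 0.318 FPKM at E0.5 and 0.0236 to 0.0646 FPKM at E4.5 (2.60, SE 0.50, adjusted p = 0.0611, or 0.0411 without E4.5 replicate 3), and was not tested at the labor stage. Markers of neurons and glia summed to 2.20 to 3.20 FPKM at E0.5 and to 3.11, 2.0 and 21.3 FPKM at E4.5, where replicate 3 was the highest, and the part of such cells was not tested. Cdh6 did not meet the criterion in either stage.

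Of the cadherins outside these classes, Cdh13, which lacks a cytoplasmic tail, was at 0.792, 0.936 and 0.673 FPKM at E0.5 and at 1.80, 1.51 and 0.432 FPKM at E4.5. E4.5 replicate 3 was the lowest of the 6, as for Cdh11, and the log2 fold change was -0.63 (SE 0.51, adjusted p = 0.562) with it and -1.04 (adjusted p = 0.0396) without it. On the labor days Cdh13 was at 2.12, 2.74 and 3.67 FPKM at E15.5 and at 4.04, 3.72 and 3.93 FPKM at E18.5, without overlap but under the criterion (0.47, SE 0.21, adjusted p = 0.430). Cdh16, a cadherin of tubular epithelia, was at 0.572, 0.660 and 1.92 FPKM at E15.5 and at 3.99, 2.64 and 4.003 FPKM at E18.5. The groups did not overlap, and the difference met the criterion with each library left out (1.83, SE 0.43, adjusted p = 0.191). Markers of kidney and mesothelium also summed higher, to 40.4 to 71.98 FPKM at E15.5 and to 99.97 to 178.9 FPKM at E18.5. Of the 6 tested, 2 met the criterion as higher and 1 as lower at E18.5, and their median log2 fold change was -0.09. The epithelial markers summed higher too, and the part of either list was not tested. At the implantation stage Cdh16 was at 0.0843 to 0.632 FPKM with overlapping groups (1.09, SE 0.59, adjusted p = 0.383).

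Cdh23, a long cadherin known from the hair cells of the inner ear, turned direction between the stages. Among the labor libraries it was at 1.14, 1.298 and 0.538 FPKM at E15.5 and at 0.274, 0.277 and 0.377 FPKM at E18.5 (-1.35, SE 0.35, adjusted p = 0.222). At the implantation stage it was at 0.114 to 0.260 FPKM at E0.5 and at 0.0467 to 0.0621 FPKM at E4.5 (1.75, SE 0.38, adjusted p = 0.0817). Neither pair of groups overlapped, and all implantation levels were low. Cdh17, known from the intestinal epithelium, was at 0.512 to 1.07 FPKM at E15.5 and at 0.125 to 0.252 FPKM at E18.5 (-1.57, SE 0.34, adjusted p = 0.169) and was not tested at the implantation stage.

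The members that were not tested had a mean under 0.1 FPKM over the libraries of a stage, 12 of 49 at the implantation stage and 11 of 48 at the labor stage. They were Itgad and otherwise cadherins, most of them known from the nervous system. Cdh7, Cdh9, Cdh22 and Cdh26 had counts in E4.5 replicate 3 alone among the implantation libraries, with 8, 6, 118 and 5 counts.

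The makeup of the cadherins differed by day. At E0.5 Cdh1 held 58.5% to 66.8% of the summed cadherin FPKM of a library, Cdh5 9.40% to 11.6% and Cdh11 8.06% to 8.75%. At E4.5 the shares were 26.6% to 31.8% for Cdh1, 25.5% to 32.5% for Cdh5 and 11.9% to 31.0% for Cdh11, so Cdh1 was no longer the first in every library. At E15.5 Cdh5 held 63.2% to 72.4% and Cdh1 5.57% to 13.7%. At E18.5 Cdh5 held 32.0% to 49.4% and Cdh1 19.8% to 35.9%. The counts and FPKM of the merged Cdh11 row imply a length of 62.6 kb, against 5.77 kb for Cdh1 and a median of 8.79 kb over tested members. By counts Cdh11 was above Cdh1 in each implantation library (22953 and 15126 in E0.5 replicate 1), so the shares rest on that length. With Cdh11 left out, Cdh1 held 63.7% to 73.2% at E0.5 and 35.1% to 46.1% at E4.5, and Cdh5 71.5% to 81.8% at E15.5 and 37.2% to 57.8% at E18.5. The ranges of Cdh1 and of Cdh5 did not overlap between the days of either stage, also in E4.5 replicate 3 and E15.5 replicate 1. The summed cadherin FPKM was 63.4 to 77.2 at E0.5, 82.0, 78.5 and 35.4 at E4.5, 143.9 to 182.5 at E15.5 and 103 to 129 at E18.5. The summed FPKM of β subunits was 77.19 to 95.01 at E0.5 and 71.1 to 88.0 at E4.5, and without overlap 243.5 to 284.4 at E15.5 and 289.0 to 326.8 at E18.5. That of α subunits was at 87.7 to 95.7 at E0.5 and 81.0 to 88.2 at E4.5, and at 115 to 128 at E15.5 and 121 to 126 at E18.5.

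**Figure D4:**
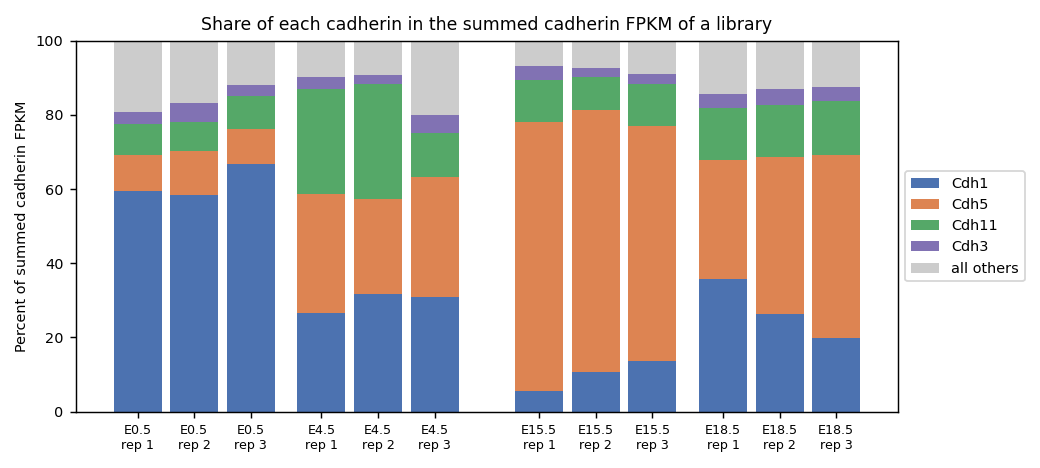
Share of each cadherin (percent, y axis) in the summed cadherin FPKM of each library (x axis), with bars that add to 100. Cdh1 (blue) holds over 58% at E0.5 and under 32% at E4.5, and Cdh5 (orange) over 63% at E15.5 and under 50% at E18.5.

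Of the 36 members tested in both stages, 6 met the criterion in both (16.7%), against 1.13% of the 21396 rows paired between the tables. In 5 of them (0.879% of rows) the direction was the same: Cdh1, Cdh24, Itga11 and Itgb6 were higher and Cdh5 was lower. For Cdh23 the directions were opposite (0.252% of rows). The count rested on single libraries: it was 2, Cdh5 and Cdh23, when either E15.5 replicate 1 or E18.5 replicate 1 was left out (0.842% and 0.761% of paired rows), 3 without E18.5 replicate 2 (1.08%) and 4 to 6 without any other library. Cdh1, Cdh24, Itga11 and Itgb6 then had labor log2 fold changes of 0.55, 0.71, 0.77 and 0.75 without E15.5 replicate 1. The stages have no mice in common. Cdh1 (1.16 and 1.0), Cdh24 (1.18 and 1.19) and Cdh5 (-1.47 and -1.26) are given as implantation and labor log2 fold changes. Their differences, from a limma fit of the FPKM of all 12 libraries, were 0.20 (SE 0.55), -0.07 (SE 0.55) and -0.13 (SE 0.42). For Itgb6 and Itga11 the differences were 1.53 (SE 0.56, adjusted p = 0.172) and 0.98 (SE 0.82, adjusted p = 0.574). That test of the difference had an adjusted p below 0.05 for 2 of 36 members, against 2.7% of all paired rows. These were Itgam (difference 3.11, SE 0.35, adjusted p = 0.00217) and Cdh23 (2.20, SE 0.50, adjusted p = 0.0432). The libraries of Itgam did not overlap at the implantation stage and overlapped at the labor stage. Without E4.5 replicate 3, Cdh11, Cdh13, Itga2, Itga3 and Itga5 passed too. The paired rows of Itgam, Cdh11 and Itga5 did not merge the same genes in the stages, as given above. Itgam passed with each library left out, and Cdh23 did not pass with 9 of the 12 left out in turn.

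**Figure D5:**
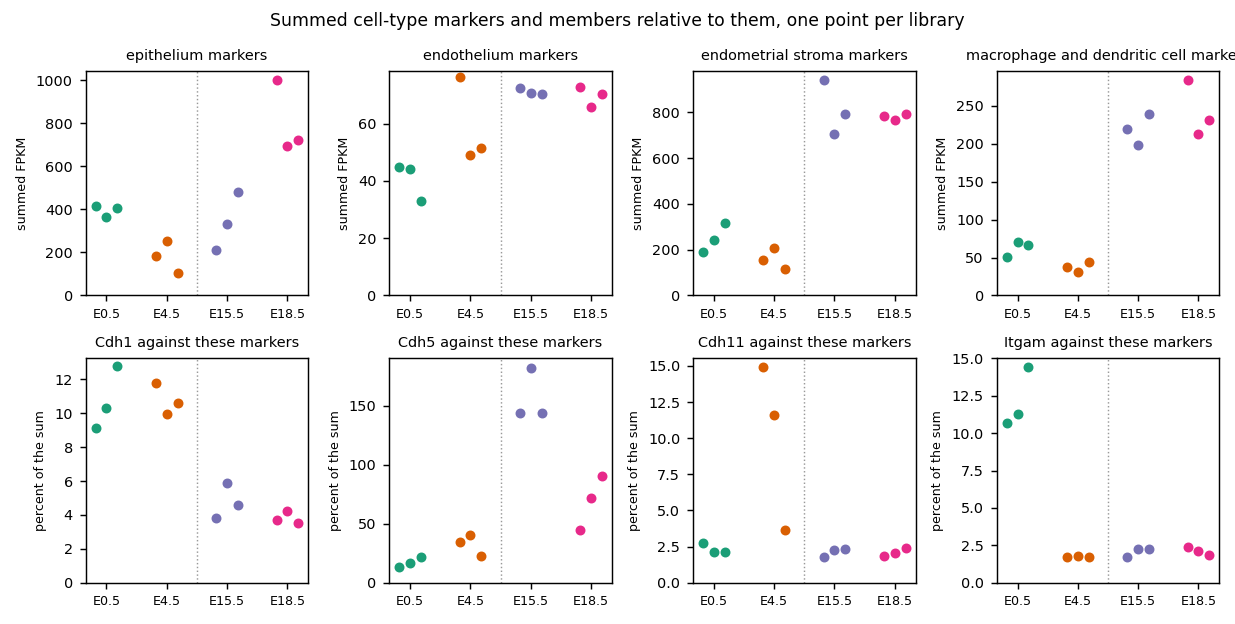
Upper row, summed FPKM (y axis) of marker genes of 4 cell types in each library (points) by day of pregnancy (x axis). Lower row, the FPKM of Cdh1, Cdh5, Cdh11 and Itgam as a percent of the marker sum above it. Cdh1 stays at 9.12% to 12.8% of the epithelial sum across the implantation libraries, while Itgam goes from 10.7% to 14.4% at E0.5 to 1.75% to 1.82% at E4.5.

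The partners of the members were read from lists of ligands, adaptors, junction proteins and transcription factors. Of 26 tested integrin ligands at the implantation stage, 1 was higher and 2 were lower at E0.5 (11.5%, near the 12.1% of all rows). The matrix protein thrombospondin-2 (Thbs2) was at 5.91, 6.88 and 7.81 FPKM at E0.5 and at 0.317, 0.331 and 3.52 FPKM at E4.5 (log2 fold change 2.36, SE 0.94, adjusted p = 0.266), with E4.5 replicate 3 again between the groups. The lower ones, the fibrinogen chains Fga and Fgg, were listed at 0 in all E0.5 libraries and reached 1.002 and 0.944 FPKM at E4.5. Without E4.5 replicate 3, 5 ligands were higher and 3 lower, while 14.2% of all rows met the criterion. Of 27 tested at the labor stage, 5 were higher and 1 was lower (22.2%, against 5.6% of all rows). Without E15.5 replicate 1 the counts were 4 and 1, while 4.68% of all rows met the criterion. Osteopontin (Spp1), a ligand of αvβ3, was at 1143, 540 and 347 FPKM at E15.5 and at 127, 166 and 191 FPKM at E18.5 (-1.91, SE 0.44, adjusted p = 0.184). The higher ones were fibronectin (Fn1, 1.04), thrombospondin-1 (Thbs1, 1.37), Thbs2 (1.21), Ccn1 (1.25) and Ccn2 (1.29), each without overlap between the groups. Fn1, the ligand of Itga5 with Itgb1, was at 139, 240 and 201 FPKM at E15.5 and at 487, 385 and 308 FPKM at E18.5 (SE 0.28, adjusted p = 0.236), and its value was 0.82, under the criterion, without E15.5 replicate 1.

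Of 33 integrin adaptors, 3 were higher and 1 lower at E0.5 (12.1%, as over all rows), and 1 was higher and 1 lower at E18.5 (6.06%, against 5.6%). Kindlin-1 (Fermt1), the kindlin of epithelia, was at 14.1, 13.6 and 15.49 FPKM at E0.5 and at 3.41, 4.77 and 2.11 FPKM at E4.5 (2.09, SE 0.31, adjusted p = 0.0356). It was also the higher adaptor of the labor stage, at 6.01 to 10.5 FPKM at E18.5 and 1.93 to 3.68 FPKM at E15.5 (1.38, SE 0.30, adjusted p = 0.168). The kindlins of other cells, Fermt2 and Fermt3, did not meet the criterion in either stage. Tensins Tns1 (1.01) and Tns4 (1.12) were higher and the parvin Parvb (-1.63) lower at E0.5, each with an adjusted p above 0.2, and without E4.5 replicate 3 the counts were 1 higher and 1 lower. In the labor libraries the leukocyte parvin Parvg was lower at E18.5 (-1.52, adjusted p = 0.246).

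Cadherin-associated proteins met the criterion in 1 case of 20 (5%, against 12.1% of all rows) at the implantation stage and in 1 of 21 (4.76%, against 5.6%) at the labor stage. The epithelial nectin Nectin4 was the one at the implantation stage, at 4.45 to 5.78 FPKM at E0.5 and 1.498 to 2.39 FPKM at E4.5 (1.40, SE 0.23, adjusted p = 0.0466). Plakoglobin (Jup) was the one at the labor stage, at 10.0 to 13.7 FPKM at E18.5 and 2.95 to 8.499 FPKM at E15.5 (1.01, SE 0.38, adjusted p = 0.365), and not without E15.5 replicate 1. The core catenins did not. The log2 fold changes were 0.44 and -0.07 for β-catenin (Ctnnb1), -0.03 and 0.45 for Ctnna1, and -0.10 and 0.29 for Ctnnd1, at the implantation and labor stage. Of 10 transcription factors of epithelial and mesenchymal states, 1 was higher and 1 lower at E0.5 (20%, against 12.1% of all rows), and 8 were not called. Snai1, a repressor of Cdh1, was at 0.954 to 1.55 FPKM at E0.5 and at 8.38, 5.04 and 2.32 FPKM at E4.5 (-2.16, SE 0.51, adjusted p = 0.0996). Grhl2, an epithelial activator of Cdh1, was at 3.61 to 3.92 FPKM at E0.5 and at 1.31 to 2.27 FPKM at E4.5 (1.03, SE 0.23, adjusted p = 0.0873), and did not meet the criterion without E4.5 replicate 3. On the labor days 1 of 9 tested met the criterion (11.1%, against 5.6% of all rows). This was Ovol2, another epithelial factor, higher at E18.5 (1.28, SE 0.33, adjusted p = 0.218), at 1.15 to 1.88 FPKM against 0.327 to 0.746 FPKM.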

How the data were processed

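Gene tables of whole uterus RNA-seq were used as deposited. For the implantation stage the authors gave read counts and FPKM per assembled gene, and for the labor stage FPKM only (fragments per kilobase of transcript, scaled to library size). Per the labels the reads were aligned and assembled with HISAT2 2.0, Bowtie 0.12.2 and StringTie 1.3.0, whereas the study's methods name Bowtie2 and Tophat2. How reads were counted is not given in the sources used here. The labels name poly(A) selection and the methods ribosomal RNA depletion, which bears on transcripts without a tail. They also differ on the sequencer, and the labels list mm8 beside mm10 and speak of adipose tissue in the extraction text. Whether ovary, placenta or membranes were removed from the uteri is not stated in them. FPKM of 0.0001 was read as 0.

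The tests took named rows whose FPKM averaged 0.1 or more across a stage's 6 libraries, 52738 and 29597 rows. Counts were tested with edgeR 4.0.16 (TMM, quasi-likelihood F-test) and log2(FPKM + 0.1) with limma 3.58.1 (trend), in R 4.3.3, with Benjamini-Hochberg adjustment over all tested rows. A labor fold change is on that log2 scale, which understates low genes. The difference between stages used limma on rows sharing Ensembl transcripts. An exact permutation test of 3 against 3 libraries cannot go below 0.1. Scripts were tested on simulated data. Alternatives were DESeq2 1.42.0, other scalings, filters and pseudocounts, a replicate block and leaving out each library. All members could be named, with values in every library for those meeting the criterion at a mean of 0.5 FPKM or more and for 9 chosen members. Of the partner lists, up to 6 rows meeting the criterion at a mean of 1 FPKM or more were named. Hand2, Dcn, Lum, Col6a4, Emcn, the macrophage and neutrophil genes, the catenins, Fermt2, Fermt3, Fga, Fgg and Ovol2 were named after their values were seen. Counts in both stages with libraries left out, and cadherin shares without Cdh11, were added after seeing the data. The members and lists were chosen with earlier results of these data known.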

Additional observations from a re-analysis of the deposited data

Results flagged for a closer look

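The difference between the stages passed an adjusted p of 0.05 in limma for 2 members. For Itgam the log2 fold change of the implantation stage exceeded that of the labor stage by 3.11 (SE 0.35, adjusted p = 0.00217). It passed with each library left out (3.20 without E4.5 replicate 3 and 3.24 without E15.5 replicate 1). The row of Itgam merged Gm49368 at the implantation stage only. For Cdh23 the difference was 2.20 (SE 0.50, adjusted p = 0.0432), with opposite directions in the stages, and it did not pass with 9 of the 12 libraries left out in turn.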

How the results depend on the processing

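At the implantation stage the count of members by the criterion lay between 6 and 12 with each library left out, and the count by adjusted p between 0 and 10. The latter was 8 with DESeq2, 1 with limma on FPKM and 0 with a replicate block. At the labor stage the count by the criterion lay between 5 and 13 with each library left out, and was 7 with a filter of 1 FPKM, 3 with a pseudocount of 1 FPKM and 7 with the replicate block. The count by adjusted p was 0 under all alternatives run there. The difference between stages was called for 1 to 7 members with each library left out, for 1 with a pseudocount of 1 FPKM and for 1 with the replicate block. The replicate numbers gave no pairing, since deviations of same-numbered libraries correlated at -0.074 to 0.023.

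Leaving out single libraries turned the sign for 8 of 37 members at the implantation stage and 7 of 37 at the labor stage. Itga9 ran from -0.36 to 1.40. Among the members given whatever their test, the sign turned for Itgav at the implantation stage (-0.39 to 0.58), and Cdh3 (-0.13 to 0.075), Cdh11 (-0.18 to 0.0199) and Itgb3 (-0.16 to 0.0559) at the labor stage. The cause was not tested. The unknown depth of the labor libraries and 3 mice per group limit the precision.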

Other observations

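The implantation table also held 127 rows that carried the name of a member without an Ensembl transcript. Of these, 56 named Cdh13. All 56 lay inside its row, so they are not independent of each other, and the strand of 53 was unknown. Their log2 fold change was below 0 in 49 of 56, with a median of -1.31, and 3 met the criterion of the study (23 without E4.5 replicate 3), against 12.1% of all tested rows with all libraries and 14.2% without it. Their summed counts were 3390, 2737 and 1581 at E0.5 and 7471, 9327 and 1443 at E4.5, so that E4.5 replicate 3 lay apart as it did for Cdh13 itself.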
